A study of Mus musculus with 24 samples.

Results

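The Hox genes of the mouse lie in 4 clusters, HoxA on chromosome 6, HoxB on chromosome 11, HoxC on chromosome 15 and HoxD on chromosome 2. The members described here are 38 Hox genes, 10 in HoxA, 10 in HoxB, 9 in HoxC and 9 in HoxD. Open chromatin was taken from peak lists of ATAC-seq, an assay in which the Tn5 transposase inserts adapters into accessible DNA. The peaks of all 24 libraries were merged into 930761 regions, of which 459616 were called in 2 or more libraries and kept. A region was counted for a cluster when it overlapped the RefSeq body of a member gene or the 10 kb on either side, which gave 167 of the 459616 kept regions: 38 in HoxA, 49 in HoxB, 46 in HoxC and 34 in HoxD.

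Hox genes encode homeodomain transcription factors, and genes of the same number in different clusters are paralogs. Along each cluster the order of the genes follows the order in which they act along the body axis, and the highest numbered groups act toward the tip of the developing limb. Members of groups 9 to 13 in HoxA and HoxD pattern limb segments from proximal to distal, HoxC genes of the high groups are active in the hindlimb, and HoxB genes act mainly along the trunk. Polycomb complexes keep silent clusters compact, and PBX and MEIS proteins bind DNA together with HOX proteins.

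The libraries came from nuclei of undigested hindlimb muscle of male FVB/NJ mice, with no genetic change or treatment. The calf was represented by the soleus (slow-biased) and the gastrocnemius (fast-biased), and the thigh by the vastus intermedius (slow-biased) and the vastus lateralis (fast-biased). Each muscle was sampled from 3 adults and from 3 litters at E18.5, a stage shortly before birth, so that there were 3 libraries in each of 8 groups. The adult age is postnatal day 56 in the design text and 3 to 4 months in the growth protocol, and an E18.5 library pooled the muscles of both sides from up to 5 male embryos of a litter. The 4 libraries of an adult or litter share that source and are not independent. Whole muscle was used, so fewer cells of a type with a peak and less opening per cell cannot be told apart.

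The lists give positions only, with no read counts, so the read depth behind a call is unknown. They held 115333 to 219114 peaks in adults and 120387 to 228137 at E18.5, and a library called 20.4% to 33.0% of all kept regions in adults and 22% to 39.7% at E18.5. The median peak width of a library was 338 to 418 bp in adults and 345 to 542 bp at E18.5. Over the 6 marker genes of skeletal muscle, of which 4 had a region called in every library, adult libraries called 68 to 110 of 179 regions and E18.5 libraries 32 to 62. That gap lay at Ttn, the gene of the sarcomere protein titin. Ttn had 67.5 ± 5.88 called regions per adult library and 13.0 ± 2.14 at E18.5 (SD, n = 3 animals or litters). Adults minus E18.5 was 54.5 at Ttn, 1.25 at Des and 0.417 at Mb. At Acta1, Ckm and Tnnt3 it was -0.0833, -0.917 and -1.33, with more calls at E18.5. Endothelial markers had 26 to 39 of 86 regions called in adults and 22 to 45 at E18.5. Fibroblast markers had 17 to 28 and 16 to 32 of 67, and Schwann cell markers 5 to 12 and 6 to 13 of 21. Immune markers had 4 to 12 and 6 to 17 of 34, cartilage and bone markers 16 to 53 and 20 to 58 of 129, and skin markers 3 to 11 and 5 to 16 of 35. No marker locus was without a call at either stage. The part of such shifts in the Hox values was not tested. The dates in the file names separate the first adult and the first litter from the others. What kind of date they are is not given in the sources used here, and they cannot be told apart from the animals.

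Of the 38 members, 22 had RefSeq promoter windows to show, 24 windows in all, each from 250 bases before to 50 after a gene start on GRCm38.p6. The 6 windows printed here carry the contrasts described further on. The Hoxd9 and Hoxd10 windows were called in all 24 libraries, and the Hoxa9 window in none. The inner Hoxa10 window and the Hoxd13 window were called in more E18.5 than adult libraries. At E18.5 the upstream Hoxd11 window was called in more calf than thigh libraries, while its only adult call was in a thigh muscle. The Hoxd12 window, not printed, was called in more thigh than calf libraries. Capitals mark the CG dinucleotides, and each sequence reads 5′ to 3′ on the gene's strand.
Hoxd9, chr2:74697513-74697812, plus strand, 20 CG: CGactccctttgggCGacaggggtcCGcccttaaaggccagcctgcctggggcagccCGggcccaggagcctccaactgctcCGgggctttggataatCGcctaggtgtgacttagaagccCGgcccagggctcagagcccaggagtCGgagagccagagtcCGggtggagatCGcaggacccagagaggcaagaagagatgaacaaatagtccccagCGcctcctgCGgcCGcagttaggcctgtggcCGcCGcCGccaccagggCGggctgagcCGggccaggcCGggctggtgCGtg
Hoxd10, chr2:74691641-74691940, plus strand, 22 CG: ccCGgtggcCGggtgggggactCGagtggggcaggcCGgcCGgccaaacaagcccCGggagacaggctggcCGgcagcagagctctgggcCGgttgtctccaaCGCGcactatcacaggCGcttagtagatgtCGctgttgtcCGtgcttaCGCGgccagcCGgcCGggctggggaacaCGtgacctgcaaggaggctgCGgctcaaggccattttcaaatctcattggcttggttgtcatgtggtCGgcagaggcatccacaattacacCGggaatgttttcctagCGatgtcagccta
Hoxa9, chr6:52227321-52227620, minus strand, 4 CG: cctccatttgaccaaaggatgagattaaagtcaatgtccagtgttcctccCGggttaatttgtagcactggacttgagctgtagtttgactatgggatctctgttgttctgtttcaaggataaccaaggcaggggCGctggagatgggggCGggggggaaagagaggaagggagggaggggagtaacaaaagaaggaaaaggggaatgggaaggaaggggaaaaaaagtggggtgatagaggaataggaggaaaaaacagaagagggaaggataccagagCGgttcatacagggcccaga
Hoxa10, chr6:52234890-52235189, minus strand, 21 CG: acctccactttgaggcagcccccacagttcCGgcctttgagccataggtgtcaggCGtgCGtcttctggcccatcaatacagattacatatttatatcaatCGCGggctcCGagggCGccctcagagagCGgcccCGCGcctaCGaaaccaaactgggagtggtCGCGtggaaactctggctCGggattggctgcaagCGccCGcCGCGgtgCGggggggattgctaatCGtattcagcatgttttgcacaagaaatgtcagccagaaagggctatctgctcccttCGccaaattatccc
Hoxd13, chr2:74667975-74668274, plus strand, 37 CG: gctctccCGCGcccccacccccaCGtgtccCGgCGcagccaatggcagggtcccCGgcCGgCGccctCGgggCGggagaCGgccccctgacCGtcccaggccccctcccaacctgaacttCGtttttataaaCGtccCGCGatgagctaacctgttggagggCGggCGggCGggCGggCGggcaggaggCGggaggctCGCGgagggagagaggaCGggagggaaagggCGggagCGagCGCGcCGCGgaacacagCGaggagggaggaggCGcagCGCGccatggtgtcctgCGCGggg
Hoxd11, chr2:74679308-74679607, plus strand, 4 CG: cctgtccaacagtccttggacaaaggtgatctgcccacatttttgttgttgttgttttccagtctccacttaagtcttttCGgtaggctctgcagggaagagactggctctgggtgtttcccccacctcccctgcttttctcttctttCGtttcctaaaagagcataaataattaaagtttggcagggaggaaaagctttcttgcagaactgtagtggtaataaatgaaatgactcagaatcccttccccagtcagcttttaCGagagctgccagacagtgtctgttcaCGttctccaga

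Hox regions were wide and shared by many libraries. Their median width was 1148 bp, against 745 bp for all kept regions, and their median number of calling libraries was 10, against 4. Of the 167 regions, 23 (13.8%) were called in all 24 libraries, against 3.98% of all kept regions. Width goes with this number: among regions of 1000 bp or wider, 23 of 92 Hox regions (25.0%) and 11.7% of all kept regions were called in every library. Cluster A held 8 of the 23, cluster C 8, cluster D 4 and cluster B 3. By nearest gene, the shared regions lay at Hoxa2, Hoxa3, Hoxa7, Hoxa9 and Hoxa10, at Hoxb2, Hoxb3 and Hoxb9, at Hoxc4, Hoxc5, Hoxc6, Hoxc9, Hoxc10 and Hoxc11, and at Hoxd8, Hoxd9, Hoxd10 and Hoxd11. The widest of the 167, with 5151 bp at chr2:74679070-74684220, covered the 5′ part of Hoxd11 and was called in all 24 libraries.

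**Figure D1:**
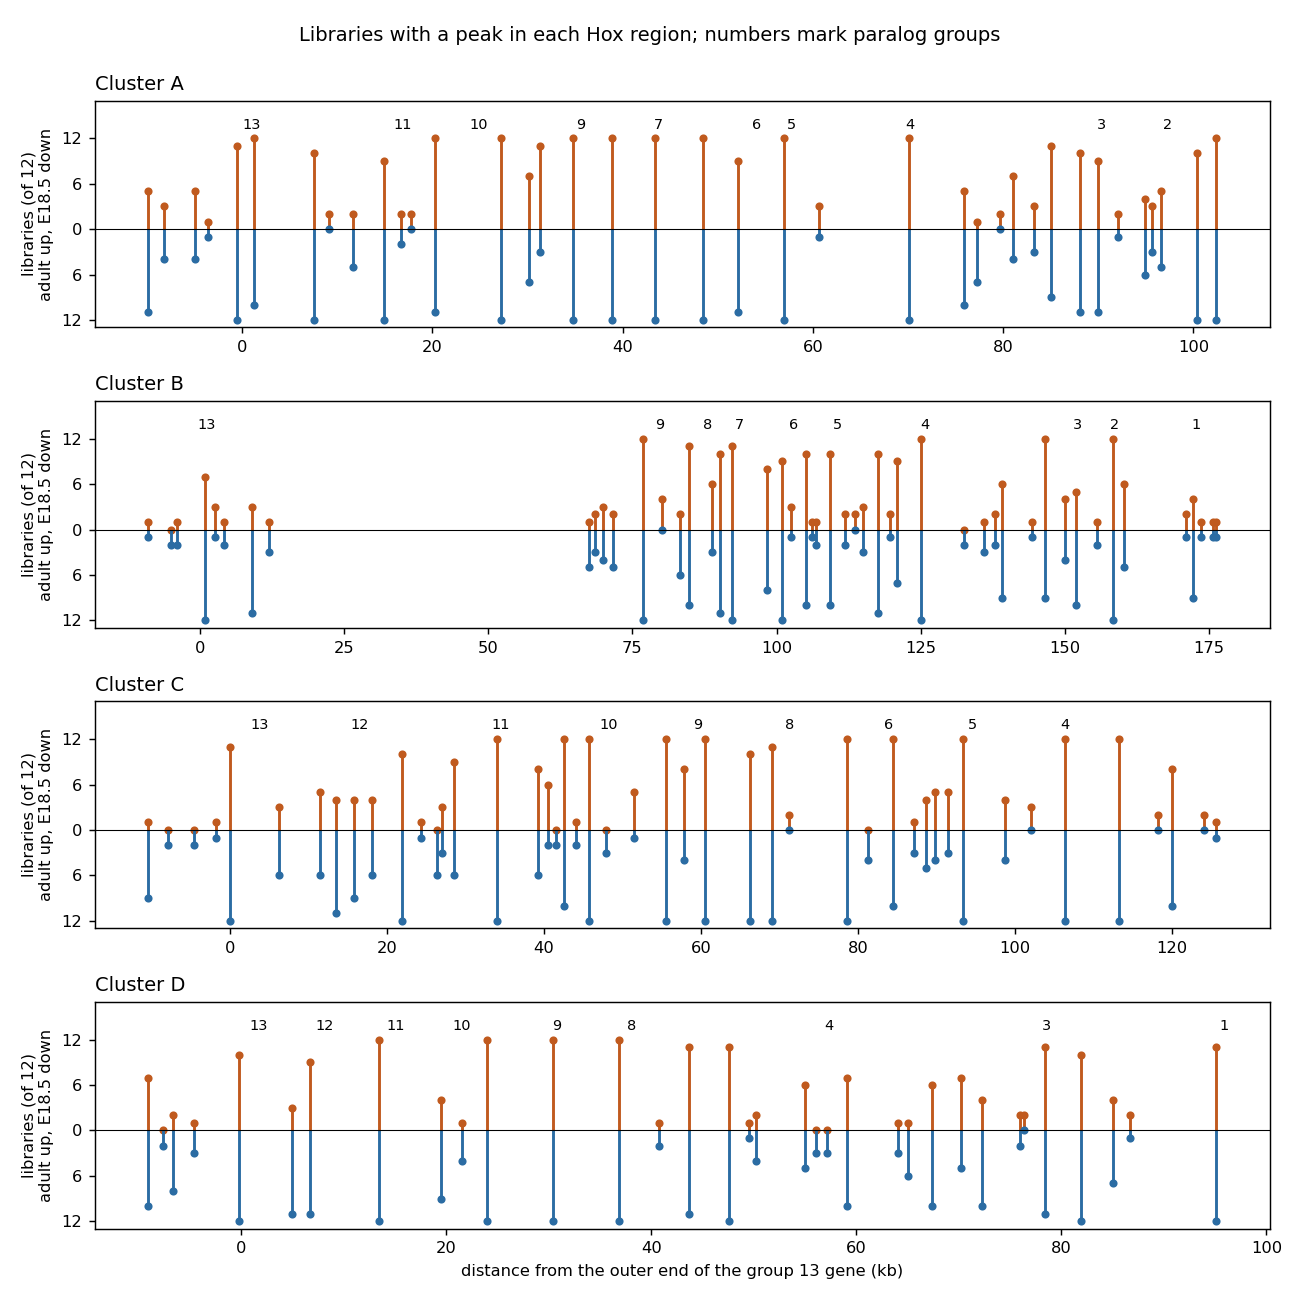
Number of the 12 adult libraries (upward, orange) and of the 12 E18.5 libraries (downward, blue) with a peak in each Hox region, against the distance in kb from the outer end of the group 13 gene; the numbers above mark the paralog groups. Regions called in every library lie near the genes, and the regions around the group 13 end of cluster D reach further down than up. No regions are drawn between Hoxb13 and Hoxb9 beyond 10 kb of either gene, since the selection does not include them.

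Cluster A, which spans 98.5 kb at chr6:52162417-52260880, was the most evenly called. A library called 19 to 26 of its 38 regions in adults (median 23) and 18 to 28 at E18.5 (median 24), with means of 22.8 ± 0.382 and 23.7 ± 3.21 (SD, n = 3 animals and 3 litters). The stages overlapped over nearly their whole range. The Hoxa7 locus, the gene body with its flanks, had the highest share of calls, 96.7% of its 5 regions over the 24 libraries, and the Hoxa4 locus the lowest, 44.4% of 6. Hoxa9, a trunk and proximal limb gene, had 6.5 ± 0.433 called regions per adult library and 5.83 ± 0.52 at E18.5, and Hoxa10 had 6.75 ± 0.433 and 6.33 ± 0.289. Hoxa13, the gene for the distal limb, had 4.25 ± 0.5 and 4.92 ± 0.629, and Hoxa11 4.25 ± 0.25 and 4.5 ± 0.25. Hoxa2 had 4.58 and 5.08, Hoxa3 13.0 and 13.8, and Hoxa5 and Hoxa6 4.0 each at both stages. The RefSeq body of Hoxa3 contains Hoxa4, Hoxa5 and Hoxa6, as those of Hoxb3 and Hoxd3 contain Hoxb4 and Hoxd4, so these loci share regions.

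Cluster B was the least called. Its 49 regions lie around genes that span 173.9 kb at chr11:96194316-96368254. A library called 8 to 24 regions in adults (median 19) and 16 to 28 at E18.5 (median 21.5), with animal means of 17.5, 23 and 15 and litter means of 24, 22.75 and 17.5. The stages overlapped, and the lowest value was that of gastrocnemius 3 in the adult. Hoxb8 had the highest share of calls, 68.1% of 9 regions, and Hoxb1, a hindbrain gene, the lowest, 18.3% of 5. Hoxb5, Hoxb6 and Hoxb7 ranged between 44.2% and 60.4%, Hoxb2 had 56.9%, Hoxb3 42.4% and Hoxb4 45.2%. Hoxb9 had 5.33 ± 1.23 called regions in adults and 5.92 ± 0.382 at E18.5. Hoxb13, which stands apart from the others at the outer end, had 0 to 4 of its 8 regions called in adults (median 1) and 1 to 5 at E18.5 (median 3), with means of 1.42 ± 0.946 and 2.83 ± 0.52.

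Cluster C spans 115.7 kb at chr15:102921131-103036856. A library called 18 to 27 of its 46 regions in adults (median 21.5) and 17 to 29 at E18.5 (median 24.5), with means of 21.8 ± 0.289 and 23.8 ± 3.32. The direction differed along the cluster. Hoxc13 had 2.75 ± 0.661 called regions per adult library and 5.33 ± 1.51 at E18.5, and Hoxc12 2.83 ± 0.144 and 5.0 ± 1.52. Hoxc10, by contrast, had 7.33 ± 0.629 and 6.5 ± 0.5, and Hoxc4 5.92 ± 0.144 and 5.5 ± 0.661. Hoxc8 had the highest share of calls in the cluster, 68.8% of 6 regions, and Hoxc13 the lowest, 40.4% of 10. Hoxc5 had 51.4%, Hoxc6 51.9%, Hoxc9 64.8% and Hoxc11 47.7%.

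Cluster D showed the widest gap between the stages. It spans 96.9 kb at chr2:74668225-74765142, and a library called 8 to 20 of its 34 regions in adults (median 16) and 15 to 26 at E18.5 (median 20.5). The means of the 3 adults were 13.25, 17.25 and 15.75 and those of the 3 litters 22, 22 and 18, so that every litter lay above every adult, with stage means of 15.4 ± 2.02 and 20.7 ± 2.31. Single libraries of the stages overlapped. Of the 34 regions, 22 (64.7%) were called in more E18.5 than adult libraries and 4 (11.8%) in fewer, against 39.1% and 36% of all kept regions. That background is unlike cluster D, with a median of 4 calling libraries against 12.5. Regions of the genome that could reach p under 0.05 in Fisher's exact test leaned to E18.5 more strongly. Of these, 14.3% had more E18.5 calls and 5.31% more adult calls at an unadjusted p under 0.05. The share of calls was 45.3% in adults and 60.8% at E18.5, and adults minus E18.5 thus came to -15.4 percentage points, against -2.19 in cluster A, -5.95 in cluster B, -4.35 in cluster C and -2.45 over all kept regions. Per 100000 kept regions that a library called, adults minus E18.5 was -2.99 calls in cluster D, 0.954 in cluster A, where the sign changed, -1.01 in cluster B and -0.0355 in cluster C. Whether the clusters differ from each other was not tested. Hoxd10 had the highest share of calls, 79.8% of 7 regions, and Hoxd4 the lowest, 43.8% of 12. All 9 loci had the lower mean in adults, but neighbouring loci share regions, and the share of all loci with a lower adult mean was not counted. The difference was widest at Hoxd3, 8.42 ± 2.55 against 10.8 ± 1.84, and narrowest at Hoxd8, 4.0 ± 0.25 against 4.17 ± 0.144. Litter 3 was low in all clusters, with 75.5 Hox calls per library against 96.75 and 96.5 in the other litters, and the adult vastus intermedius 1, which had the shortest list, called the fewest regions of cluster D, 8.

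**Figure D2:**
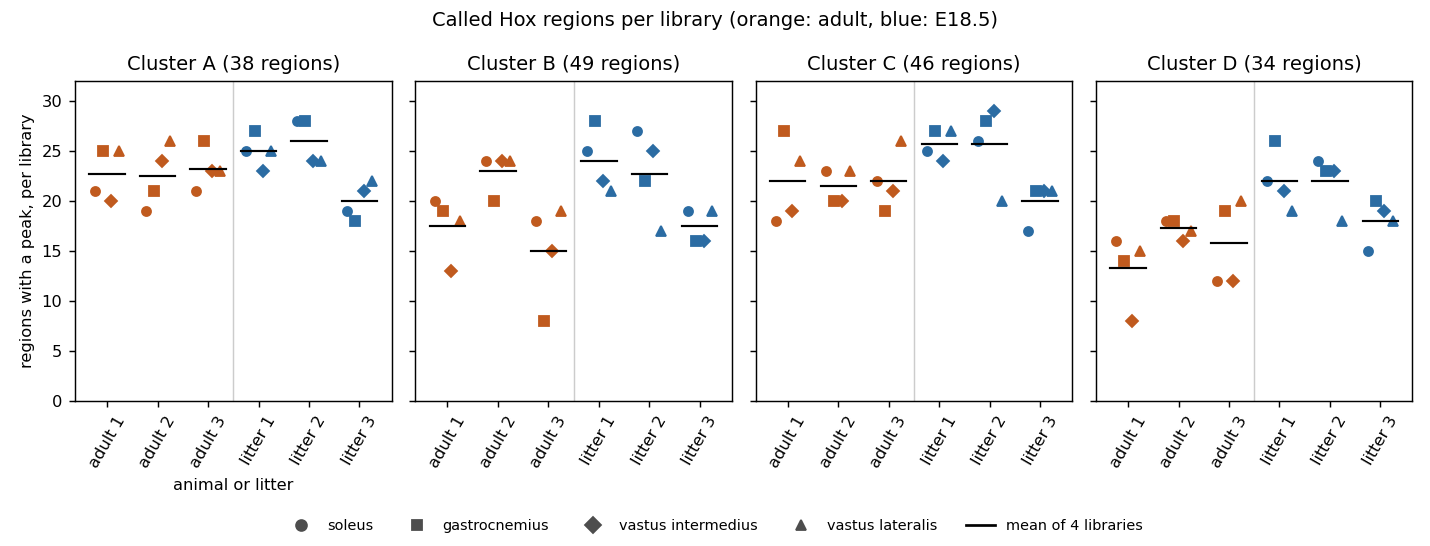
Called Hox regions per library in each cluster, by adult (orange) and litter (blue); symbols stand for the 4 muscles and bars for the mean of the 4 libraries of an animal or litter. In cluster D the litter means, 18 to 22, lie above the adult means, 13.25 to 17.25, while in clusters A, B and C the means of litter 3 fall to or below some adult means.

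The stage difference in cluster D was largest toward the group 13 end. Regions nearest to Hoxd9 to Hoxd13 had a share of calls of 50.7% in adults and 73.6% at E18.5, which is -22.9 points over 12 regions, and those nearest to Hoxd1 to Hoxd4 had 41.2% and 53.3% over 20 regions. In cluster B the groups 9 to 13 differed by -14.4 points and the groups 5 to 8 by 0.0. In cluster C the groups 9 to 13 differed by -8.33 and the groups 1 to 4 by 5.21, with more calls in adults. In cluster A the groups 9 to 13 had 60.2% at both stages. Without adult 2 the cluster B value was -30.4, and without litter 3 or litter 1 the cluster C value was -13.8 or -4.67, while the cluster D value stayed between -26.5 and -18.7 when any animal, litter or the 2 libraries named above were left out. Over all clusters, 41 of 73 regions nearest to groups 9 to 13 were called in more E18.5 libraries and 14 in more adult ones (56.2% and 19.2%). For groups 1 to 4 the numbers were 27 and 18 of 69 (39.1% and 26.1%), and over all kept regions the shares were 39.1% and 36%. All kept regions had a median of 4 calling libraries against 10 for the Hox regions, so this background is unlike them.

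At the loci of Hoxd11, Hoxd12 and Hoxd13, which pattern the middle and distal limb, the litters lay above the adults without overlap. Hoxd13 had 1 to 5 of its 8 regions called in adults (median 4) and 5 to 7 at E18.5 (median 6), with adult means of 4.25, 4 and 2.75 and litter means of 5.75, 6 and 5.5. Hoxd12 had means of 3.75, 3.25 and 2.5 in adults and 4.25, 5 and 4.5 in litters. Hoxd11 had 4, 3.25 and 3 in adults and 4.5, 5.5 and 4.75 in litters. The animal means also did not overlap at Hoxd9, Hoxc12 and Hoxc13, all higher at E18.5, and at no member locus were they higher in adults. These 6 loci are 15.8% of the 38. Over all 32827 protein-coding and lncRNA loci with a kept region, 13.9% had every litter above every adult and 5.19% every adult above every litter, so the share among the members was near that of all loci. With 3 animals against 3, an exact permutation test cannot go below 0.1. Neighbouring loci share regions through their flanks.

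Stage was tested for each region over all kept regions, with Fisher's exact test on the libraries that called it, 12 adult against 12 E18.5. Of 170267 regions that could reach p under 0.05, 1.55% passed a Benjamini-Hochberg adjusted p of 0.05 with more calls in adults and 4.55% with more calls at E18.5. Of 60 Hox regions among them, 1 passed in adults and 3 at E18.5, shares near those backgrounds. At an unadjusted p under 0.05 there were 1 and 10, against 5.31% and 14.3% of all regions tested. Of these 11 regions, 9 were nearest to a gene of groups 9 to 13, as were 31 of the 60 tested regions, and whether the groups differ was not tested. No Hox region was called in all libraries of one stage and none of the other, against 0.0623% of all tested regions for adults and 0.174% for E18.5.

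The region with more adult calls lay between Hoxa9 and Hoxa10, at chr6:52228985-52230240, 957 bp from the Hoxa10 body, and overlaps the hairpin of Mir196b. It was called in 11 of 12 adult libraries, all but soleus 2, with peaks covering 332 to 1127 bp of it. At E18.5 it was called in 3 of 12, gastrocnemius 1, soleus 1 and soleus 2, which all are calf muscles. The 3 regions with more E18.5 calls all lay outside gene bodies at the group 13 end. One at chr2:74672741-74673511, 1138 bp from Hoxd13 on the side of Hoxd12, was called in 3 adult libraries (vastus lateralis 1, soleus 2 and vastus intermedius 2) and in 11 at E18.5, all but vastus lateralis 1. One at chr11:96202629-96204247, 6019 bp from Hoxb13, was called in 3 adult libraries (soleus 2, vastus intermedius 2 and vastus lateralis 3) and in 11 at E18.5, all but vastus lateralis 2. One at chr15:102909955-102911440, 9691 bp from Hoxc13 beyond the cluster, was called in 1 adult library (gastrocnemius 2) and in 9 at E18.5.

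Fisher's exact test gave each of these 4 regions a p of 0.00276, or 0.0453 after adjustment, just inside the threshold. None of the 4 calls held throughout: leaving out the adult vastus intermedius 1 library moved the adjusted p to 0.0522 and leaving out the adult gastrocnemius 3 library to 0.0506, which ended all 4. So did leaving out all libraries of adult 1 or of adult 3, or thinning every list to the length of the shortest. Without adult 2 the counts were 1 with more adult and 5 with more E18.5 calls, without litter 1 they were 1 and 0, without litter 2 0 and 1, and without litter 3 0 and 2. Libraries of an animal are treated as independent in this test, so its p-values are too small.

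In fixed windows of 500 bp, an alternative that splits wide regions, 2 Hox windows passed with more calls in adults and 14 with more at E18.5, of 271 tested (0.738% and 5.17%). Over all 436914 windows tested the shares were 1.75% and 5.69%, so the Hox shares were again not above the background. A wider peak can touch more windows, and the part of the stages' peak widths in these counts was not tested. The 2 windows with more adult calls were chr6:52229501-52230000, beside Hoxa10 (11 adult and 3 E18.5 libraries), and chr6:52232501-52233000, inside the Hoxa10 body (10 and 1). Another Hoxa10 window, chr6:52235001-52235500, which overlaps the inner promoter printed above, was called in 3 adult and 11 E18.5 libraries. The 14 also held 3 windows at Hoxb9 (0, 1 and 1 adult libraries against 9, 10 and 10), 1 at Hoxd1 (0 against 10), 1 at Hoxd11 (0 against 8) and 2 at Hoxd13. The Hoxd1 window, chr2:74762001-74762500, had the lowest adjusted p of the 16, 0.00358 in Fisher's exact test.

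Calls at the promoter windows differed between members. The windows of Hoxa3, Hoxd9 and Hoxd10 were called in all 24 libraries, and those of Hoxa7, Hoxa9 and Hoxb8 in none, although at each of these 3 loci other regions were called in every library. Windows called in all 24 made up 12.5% of the Hox windows and 30.2% of all 32851 promoter windows, and windows called in none 12.5% and 24.2%. The median number of calling libraries was 18 for the Hox windows and 9 for all windows. Hox windows had a median of 14.5 CG dinucleotides against 7 for all windows. Among windows with 20 or more, 3 of 11 Hox windows (27.3%) and 77.6% of all windows were called in every library. Of the 24 Hox windows, 13 (54.2%) were called in more E18.5 libraries, 3 (12.5%) in more adult libraries and 8 (33.3%) in equal numbers. Over all promoter windows these shares were 27.5%, 13.8% and 58.8%, so equal numbers were more common there. The 3 with more adult libraries were Hoxa5 with 12 adult and 10 E18.5, Hoxd3 with 11 and 10 and Hoxd4 with 1 and 0. Among the 13, given as E18.5 and adult libraries, were Hoxa13 in 12 and 7, Hoxa11 in 12 and 8, the inner Hoxa10 window in 11 and 4, the upstream Hoxa10 window in 9 and 4. Hoxd13 and Hoxd1 were each called in 12 and 8, Hoxd12 in 7 and 2, and Hoxb1 in 7 and 2. The upstream Hoxd11 window was called in 6 calf and 1 thigh libraries, 6 of these 7 at E18.5, and the downstream Hoxd11 window in 9 and 10. The Hoxd12 window was called in 2 calf and 7 thigh libraries. No share of all promoter windows by calf and thigh is given beside these counts. These counts are a description of windows that often lie inside wider regions, and carry no test of their own.

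**Figure D3:**
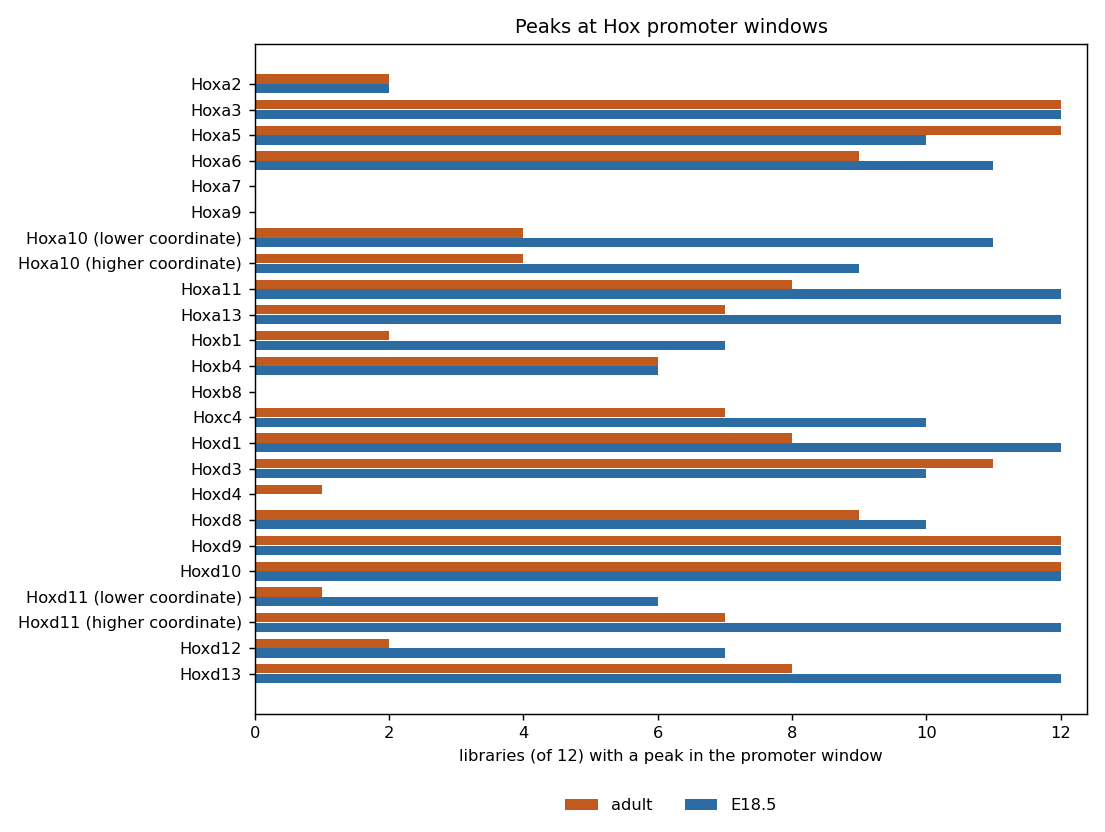
Number of adult (orange) and E18.5 (blue) libraries, of 12 each, with a peak in each of the 24 promoter windows of 22 Hox genes; genes with 2 windows are marked by their coordinate. Hoxa3, Hoxd9 and Hoxd10 reach 12 at both stages, Hoxa7, Hoxa9 and Hoxb8 stay at 0, and the windows of Hoxa10 and of groups 11 to 13 have longer E18.5 bars.

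Sequence motifs in the promoter windows were counted on both strands. TAATNA, a core that homeodomain proteins bind, was in 25.0% of the Hox windows and 26.5% of all windows, and TGATTNAT, a PBX and HOX composite, in 8.33% (2 windows, Hoxa2 and the downstream Hoxd11 window) and 3.22%. TATAAA was in 16.7% and 13.6%, among them Hoxa10 (inner), Hoxd4, Hoxd13 and Hoxb8, and CCAAT, the NF-Y core, in 62.5% and 37.4%. A match describes the letters in the window and is not a binding site.

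Calf against thigh asks whether chromatin of the Hox clusters differs between muscles of the middle and the upper hindlimb segment. Regions of cluster D had a share of calls of 55.6% in calf and 50.5% in thigh, 5.15 percentage points more in calf, against 1.13 points over all kept regions. Clusters A, B and C differed by -0.439, 2.21 and -0.362 points. The cluster D calls were higher in calf in adults 1 and 2 and litters 1 and 2, by 3.5, 1.5, 4 and 3 regions per library, and lower in adult 3 and litter 3, by -0.5 and -1. The sign thus varied over the animals, and the spread between animals covers the difference.

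Within cluster C the direction of the locus means changed with position, but neighbouring loci share regions and are not separate observations. A region in the Hoxc6 body, called in 1 calf and 8 thigh libraries, also counts for Hoxc4 and Hoxc5. One in the Hoxc9 body, called in 3 and 9, also counts for Hoxc10, and one in the Hoxc13 body, called in 7 and 2, for Hoxc12. The mean number of called regions was higher in thigh at 6 loci, Hoxc4, Hoxc5, Hoxc6, Hoxc8, Hoxc9 and Hoxc10, and higher in calf at 3, Hoxc11, Hoxc12 and Hoxc13. Hoxc9 had 5 to 8 of its 9 regions called in calf (median 5) and 5 to 7 in thigh (median 6.5), with means of 5.25 ± 0.612 and 6.42 ± 0.376 (SD, n = 6 animals and litters), and was higher in thigh in 6 of 6. Its ranges overlapped. Hoxc12 had 3 to 7 of 9 regions called in calf (median 4.5) and 0 to 7 in thigh (median 3), with means of 4.58 ± 1.32 and 3.25 ± 1.75, and was higher in calf in 6 of 6. Hoxc13 had means of 4.58 ± 1.77 and 3.5 ± 1.87 and was higher in calf in 5 of 6. The exact permutation test within animals, over all 46656 regroupings, gave an unadjusted p of 0.00296 for Hoxc9, 0.0181 for Hoxc12 and 0.0428 for Hoxc13, and an adjusted p of 1.0 for each. Loci with an unadjusted p under 0.05 made up 1.93% of all 32827 loci for calf and 0.698% for thigh. No locus in the genome passed after adjustment (0.0% in either direction), and the smallest p of any locus was 0.000171. With 46656 regroupings and 32827 loci, a single locus could not pass alone even at its smallest possible p. The absence of passing loci thus does not show that calf and thigh are alike.

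**Figure D4:**
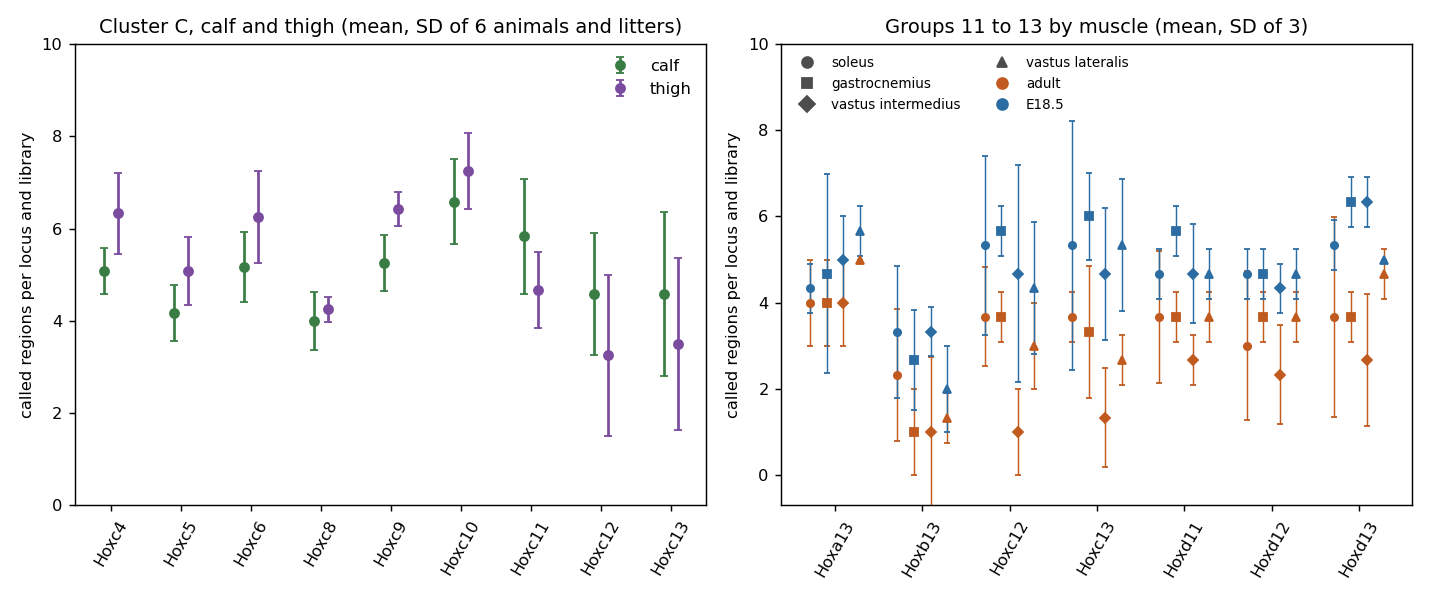
Left, called regions per locus and library along cluster C in calf (green) and thigh (purple), mean and SD over 6 animals and litters. Right, the same by muscle for Hoxa13, Hoxb13, Hoxc12, Hoxc13, Hoxd11, Hoxd12 and Hoxd13, adult in orange and E18.5 in blue, mean and SD over 3. Hoxa11 and Hoxc11 are not drawn on the right. Hoxc4 to Hoxc10 have the higher thigh means and Hoxc11 to Hoxc13 the higher calf means, with overlapping bars except at Hoxc9, and the adult vastus intermedius has the lowest means at Hoxc12 and Hoxc13, 1.0 and 1.33.

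In cluster D, 8 of 9 loci had the higher mean in calf and Hoxd8 was equal, but neighbouring loci share regions and are not separate observations. The largest difference was at Hoxd3, 10.2 ± 2.75 against 9.08 ± 2.31 (exact permutation p = 0.182), within the spread between animals. In cluster B, 8 of 10 loci were higher in calf and 2 equal, and in cluster A 5 were higher, 3 lower and 2 equal. Loci share regions in these clusters too. Calf was also higher by 1.13 percentage points over all kept regions. The share of all loci with a higher calf mean was not counted, so the locus counts of the 4 clusters have no background here. Hoxb13 had 2.33 ± 1.21 and 1.92 ± 0.97, Hoxa13 4.25 ± 1.04 and 4.92 ± 0.585, and Hoxd13 4.75 ± 1.37 and 4.67 ± 1.21, in calf and thigh.

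Tested region by region, no Hox region and no region in the genome (0.0%) passed the adjusted threshold for calf against thigh, with an exact conditional test stratified by stage. Over so many regions, a single region could not pass alone even at its smallest possible p. The absence of passing regions thus does not show that the segments are alike. At an unadjusted p under 0.05, 0 of 56 tested Hox regions were higher in calf and 2 in thigh, against 1.31% and 0.82% of all regions tested. These 2 are a region in the Hoxc6 body, chr15:103009293-103010160, called in 1 calf and 8 thigh libraries (exact p = 0.011), and one in the Hoxc9 body, chr15:102978464-102979442, called in 3 and 9 (exact p = 0.0312). The one calf library that called the Hoxc6 region was the E18.5 soleus 2. Largest in the other direction were a region 4043 bp from Hoxc11, called in 10 calf and 5 thigh libraries, and one in the Hoxc13 body, called in 7 and 2 (exact p = 0.0852 for both). Within adults alone and within E18.5 alone no Hox region had an unadjusted p under 0.05 by Fisher's exact test, against 0.638% (calf) and 0.544% (thigh) of all regions in adults and 0.705% and 0.429% at E18.5. Called in all 6 libraries of one segment and 0 of the other were 0 Hox regions in either stage, against 0.0332% (calf) and 0.0145% (thigh) of all tested regions in adults and 0.022% and 0.0281% at E18.5. The largest differences within adults were at Hoxc12 (chr15:102938245-102940216, 4 calf and 0 thigh libraries) and at the Hoxc6 region (0 and 4), and within E18.5 at the Hoxc9 region (0 and 4) and at 2 regions 4043 and 6776 bp from Hoxc11 (5 and 1 each).

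The Hoxc9 region also had the largest difference between single muscles. It was called in all 6 vastus lateralis libraries, in 3 of 6 vastus intermedius, in the 3 adult gastrocnemius but no E18.5 gastrocnemius libraries, and in 0 of 6 soleus libraries. Each of soleus and vastus lateralis against the other muscles gave an exact p of 0.00926 and an adjusted p of 1.0. No region in the genome passed in the comparisons of a muscle with the others or of slow-biased with fast-biased muscles (0.0% in each). The limit given for calf against thigh, that a single region could not pass alone, holds here too. At an unadjusted p under 0.05 by the exact conditional test, of 123 tested Hox regions 3 were higher and 1 lower in soleus, against 2.44% and 0.945% of all regions tested, and 2 higher and 1 lower in gastrocnemius, against 2.52% and 0.189%. For vastus intermedius 3 were higher and 3 lower, against 1.29% and 0.641%, and for vastus lateralis 2 and 0, against 2.56% and 0.335%. No Hox region was called in all libraries of a muscle and none of the others, against 0.000274% of all tested regions for soleus. Slow-biased against fast-biased muscles gave 0 and 1 of 56, against 0.632% and 2.51%, the one being the Hoxc9 region (3 slow-biased and 9 fast-biased libraries, exact p = 0.0312).

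Other regions are given that were among the 5 largest differences of a muscle comparison and had an unadjusted exact p under 0.05. A region 2540 bp from Hoxa11, chr6:52248350-52249955, was called in 4 of 6 vastus intermedius and 3 of 18 other libraries (exact p = 0.0351). The Hoxc13 region, chr15:102927046-102927864, was called in 5 of 6 gastrocnemius and 4 of 18 other libraries (exact p = 0.0134). A region in the Hoxb5 body of 3729 bp was called in 3 of 6 gastrocnemius and 17 of 18 other libraries (exact p = 0.0393), and one in the Hoxd10 body in 1 of 6 vastus intermedius and 12 of 18 others (exact p = 0.0417). A region 34 bp from Hoxb13 was called in 3 of 6 soleus and 1 of 18 others (exact p = 0.0352), and one 9268 bp from Hoxa13 in 6 of 6 vastus lateralis and 10 of 18 others (exact p = 0.0341). A region of 763 bp at Hoxb5 was called in 3 of 6 soleus and 1 of 18 others (exact p = 0.0393). One 9420 bp from Hoxb13 was called in 3 of 6 vastus intermedius and 1 of 18 others (exact p = 0.0352). All of these had an adjusted p of 1.0.

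By muscle, groups 11 to 13 in clusters C and D were 6 loci. At 5 of them the adult vastus intermedius had the lowest of the 4 adult means. Neighbouring loci share regions through their flanks, so these 6 are not separate observations. The adult vastus intermedius was lowest at 11 of all 38 Hox loci (28.9%), a smaller share than the 38.7% of all 32827 loci. Its libraries called 20.4% to 25.5% of all kept regions, against 25.0% to 33.0% in the other adult muscles, and the part of this in the values that follow was not tested. Its 3 libraries had 1.0 ± 1.0 called regions at Hoxc12 and 1.33 ± 1.15 at Hoxc13, against 3.0 ± 1.0 and 2.67 ± 0.577 in the adult vastus lateralis, 3.67 ± 0.577 and 3.33 ± 1.53 in the gastrocnemius, and 3.67 ± 1.15 and 3.67 ± 0.577 in the soleus (SD, n = 3). At E18.5 the vastus intermedius had 4.67 ± 2.52 and 4.67 ± 1.53. Over cluster D the adult means were 12 ± 4.0 in the vastus intermedius, 15.3 ± 3.06 in the soleus, 17 ± 2.65 in the gastrocnemius and 17.3 ± 2.52 in the vastus lateralis, and these SDs overlap. At E18.5 they were 21.0 ± 2.0, 20.3 ± 4.73, 23.0 ± 3.0 and 18.3 ± 0.577.

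The clusters also carry microRNA genes. The 5p arms of miR-196a and miR-196b, from genes in HoxB, HoxC and HoxA, and of miR-10a and miR-10b, from HoxB and HoxD, form 2 seed families; capitals mark the seed, bases 2 to 8.
miR-196a-5p: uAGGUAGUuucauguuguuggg
miR-196b-5p: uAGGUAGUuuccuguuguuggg
miR-10a-5p: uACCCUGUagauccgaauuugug
miR-10b-5p: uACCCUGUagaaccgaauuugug
The first pair shares the seed AGGUAGU and the second the seed ACCCUGU. Peaks over the hairpins of the miR-196 and miR-10 genes were few, while the Mir615 hairpin was touched more often. The Mir196b hairpin, chr6:52230081-52230165, was touched by a peak in 2 libraries, adult gastrocnemius 1 and 3, although the region it lies in was called in 14. The Mir196a-2 hairpin was touched in 1 library, the adult soleus 1, and the Mir196a-1 and Mir10a hairpins in 0. The Mir10b hairpin was touched in 1 adult and 4 E18.5 libraries, and that of Mir615, in HoxC at Hoxc5, in 10 and 9.

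Among the noncoding RNAs in the clusters is Hotair, transcribed between Hoxc11 and Hoxc12, whose locus shares regions with both of these loci through the flanks. It had 5.42 called regions per calf library and 4.0 per thigh library (exact permutation p = 0.0319, adjusted p = 1.0). Its adult mean was 3.92 ± 0.144 and its E18.5 mean 5.5 ± 1.15, while Hoxc11 had 5.33 ± 0.52 and 5.17 ± 1.04. Hottip, at the HoxA end beside Hoxa13, had 4.58 ± 0.289 and 5.08 ± 0.52, and its locus shares regions with that of Hoxa13. Over the 14 RNA genes, 1 of 42 tested regions passed with more calls in adults, the Mir196b region described above, and 1 with more at E18.5. The latter, chr11:96259934-96260984 near Mir196a-1, lies just beyond the 10 kb flank of Hoxb9 and so outside the 167 regions, and was called in 2 adult and 11 E18.5 libraries (Fisher's exact test, adjusted p = 0.0168). The homeobox gene Evx2 lies beside Hoxd13, and the loci of these neighbours share regions through the flanks. Evx2 had 3.0 ± 0.661 called regions in adults and 5.25 ± 1.0 at E18.5, while Evx1, beyond Hoxa13, had 3.33 ± 0.52 and 3.42 ± 0.52. None of the 8 tested regions of the pair passed after adjustment.

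Genes that work with the clusters showed shares close to the background of 1.55% and 4.55%. At the 9 cofactor genes of the PBX, MEIS and PKNOX families, 3 of 147 tested regions passed with more calls in adults and 8 with more at E18.5. Of the 8, Meis2 held 3 and Meis1 2. Meis2 had 8.33 ± 2.13 called regions per adult library and 13.1 ± 2.7 at E18.5. At 15 Polycomb and Trithorax genes, 0 of 73 passed in adults and 2 at E18.5. One of the 2 lies in the flanks of the neighbours Cbx2 and Cbx8, chromobox subunits of Polycomb complexes, and the other at Jarid2. At 6 genes of limb type and limb outgrowth, 0 of 55 passed in adults and 3 at E18.5, 2 at Lmx1b, the dorsal limb regulator, and 1 at Tbx5, the forelimb gene. At Pitx1 and Tbx4, the hindlimb genes, none passed, with 4.92 called regions per library at both stages for Pitx1 and 7.92 ± 1.38 and 8.67 ± 1.28 for Tbx4.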

How the data were processed

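The authors deposited 1 peak list per library, with chromosome, start and end and no score, count or signal; these deposited positions are the only values used. Per the submitters' processing notes, the build was mm10 and the tools named are MACS2 2.1.1, a peak caller, Bowtie2 2.4.4, an aligner, Trimmomatic 0.39.0, a read trimmer, and also SAMtools 1.14.0, bedtools 2.25.0, FastQC 0.11.5 and Picard. For thresholds, filters, depth and any shift of reads for the transposase, nothing is given in the sources used here.

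Peaks were merged across the 24 lists, and an overlap of 1 bp between a library's peak and a region counted as a call. Calls were compared with Fisher's exact test or, across stages, an exact conditional test stratified by stage, two-sided, with Benjamini-Hochberg adjustment over all kept regions whose number of calls could reach p under 0.05 (Python 3.11.15, numpy 2.4.6, scipy 1.17.1). Called regions per locus (calf against thigh) were compared with an exact two-sided permutation within animals and adjusted over all RefSeq protein-coding and lncRNA loci with a kept region. Cluster totals, positions and promoter windows are descriptions. The tests were checked on simulated calls. No 2 lists were identical. The RefSeq tables gave gene bodies without exons; all members and list genes matched, and 16 members have no promoter window here.

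Pairing comes from the labels, which give the 4 muscles of a number to the same mouse or litter. Deviations from the group means of libraries of the same animal correlated with a mean r of 0.0127 in adults and 0.0541 at E18.5, against -0.00632 and -0.0271 for libraries of different animals.

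The members, gene lists and tests were chosen with earlier results of these data known. Regions named are those past the adjusted threshold or, where none passed, some of the 5 with the largest difference per comparison. Loci of highest and lowest share per cluster and groups 9 to 13 by muscle are named too. The count over groups 11 to 13 of clusters C and D is narrower than this rule. The 500 bp windows, the loci whose animal means do not overlap and the regions near listed genes were named after their values were seen.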

Additional observations from a re-analysis of the deposited data

How the results depend on the processing

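For calf against thigh, within each stage and over both, and for single muscles and fibre bias, the count of Hox regions past the adjusted threshold was 0 in every alternative run, the replicate block (animal or litter as stratum) included. The count of Hox loci was 0 in each of its alternatives, with no replicate block (muscle labels permuted within stage) too. In the main run a single region or locus could not pass these adjustments alone, even at its smallest possible p. These counts of 0 were thus nearly fixed in advance and do not show that the segments or muscles are alike. The stage counts (1 higher in adults, 3 at E18.5) moved. The adult count was 0 when peaks had to cover 50% of it, with thinned lists and with peaks of 300 bp or wider, and 2 in windows of 500 bp; leaving out libraries gave 0 to 1. The E18.5 count was 1 with 5 kb flanks, 14 in windows and 0 with thinned lists; leaving out libraries gave 0 to 5. The 4 named regions kept their direction in all alternatives, and 41 of their alternative values were no longer past the threshold or could not be tested. In windows, adults minus E18.5 calls were -9.67 in cluster B, -6.58 in C and -21.8 in D, and calf minus thigh 7.58 in D. There were 556 Hox windows against 167 regions, and median peak widths differed between libraries. The part of either in these values was not tested. Leaving out libraries gave by stage -6.54 to -4.29 for cluster D, -3.08 to 0.625 for A, -5.96 to -1.33 for B and -3.88 to -0.792 for C; per 100000 regions that a library called the values were -2.99, 0.954, -1.01 and -0.0355. For regions of groups 9 to 13, adults minus E18.5 was -8.93 points in cluster A with 50% cover, -30.6 in cluster D when lists were shortened in file order, and -30.4 to -10.8 in cluster B when libraries were left out. Promoter windows called in every library numbered 1 with 50% cover and 0 with thinned lists. The shortening in file order, the leave-outs of single libraries, the scaled cluster calls and the alternatives for positions and promoters were chosen after seeing the data. Ties given to the shorter gene body changed the shares by group in cluster A only. The lists hold no scores or reads, so no depth limit can be given for a missing peak.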
